A study of Mus musculus with 9 samples.

Results

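De novo fatty acid synthesis turns the carbon of sugar, acetate or ketone bodies into palmitate. Liver transcripts of 10 genes of this pathway, chosen by name (Acly, Acss2, Acaca, Acacb, Fasn, Me1, Pklr, Aacs, Thrsp and Mlxipl), were followed in 9 male mice, 3 in each of 3 groups. All 10 were among the 55401 genes counted and the 12660 that had enough counts to be tested. STAM + Atglistatin mice (4, 5 and 6) were injected under the skin with 200 µg of streptozotocin at the age of 2 days. From 4 weeks of age they ate a high-fat diet that contained Atglistatin, an inhibitor of adipose triglyceride lipase, for another 4 weeks. STAM mice (1, 2 and 3) had the same injection and the same diet without the inhibitor. Chow mice (7, 8 and 9) had neither streptozotocin nor Atglistatin and ate chow. Streptozotocin kills the insulin-producing beta cells of the pancreas, and it was given together with the high-fat diet, so the share of each in a difference between STAM and chow cannot be told apart. No group had Atglistatin on chow, and the strain is not given in the sources used here.

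In the cytosol, ATP-citrate lyase and acetyl-CoA synthetase supply acetyl-CoA, acetyl-CoA carboxylase turns it into malonyl-CoA, and fatty acid synthase builds palmitate from both with NADPH that comes in part from malic enzyme. In liver the genes are known as targets of the sterol regulatory element-binding proteins (SREBPs), which insulin and low sterol activate, and of the carbohydrate response element-binding protein (ChREBP, the product of Mlxipl), which glucose activates. The pathway is known for its high activity in the fed state and its part in fatty liver.

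QuantSeq 3' mRNA libraries, which read the 3' ends of transcripts, held 7380365 to 9886129 counts each, and the lowest count of any of the 10 genes in any library was 121. Levels are given as CPM, the counts of a gene per 1e6 of the scaled library size, for single mice or as mean ± SD of n = 3. They serve to compare mice, not genes. A difference is a log2 fold change, fitted and tested by edgeR's quasi-likelihood method, with an SE worked back from the F statistic of that test. Every adjusted p is the p of that test after Benjamini-Hochberg adjustment over all 12660 genes, with 0.05 as the threshold. The p-values set the difference between groups against the spread of samples within groups. The labels name no litter, cage or batch, so none could be taken into account. In whole liver, fewer cells of a type and less RNA per cell cannot be told apart. With 3 mice a group, 226 genes passed for STAM + Atglistatin against STAM (1285 at an unadjusted p under 0.05), 499 for STAM against chow (1841 unadjusted) and 516 for STAM + Atglistatin against chow (1878 unadjusted). For STAM against chow these were 247 higher and 252 lower genes, or 347 and 205 with unscaled library totals. For STAM + Atglistatin against chow they were 266 higher and 250 lower, or 359 and 184 with unscaled totals.

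For 8 of the 10 genes, all but Thrsp and Mlxipl, transcript was higher in Atglistatin-fed STAM mice than in STAM mice past the threshold. The same 8 were lower in STAM mice than in chow mice past the threshold. Thrsp averaged 1260 CPM in STAM + Atglistatin, 641 in STAM and 980 in chow, differences in the same directions that missed the threshold (adjusted p = 0.0580 and 0.235). Fatty acid synthase moved most with the inhibitor, at 979 ± 197 CPM in STAM + Atglistatin, 214 ± 56.2 in STAM and 844 ± 216 in chow. Acetyl-CoA synthetase Acss2 and carboxylase Acacb rose with the inhibitor and were still below chow. The comparisons share mice: STAM mice serve in the first 2 and chow mice in the last 2.

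**Figure D1:**
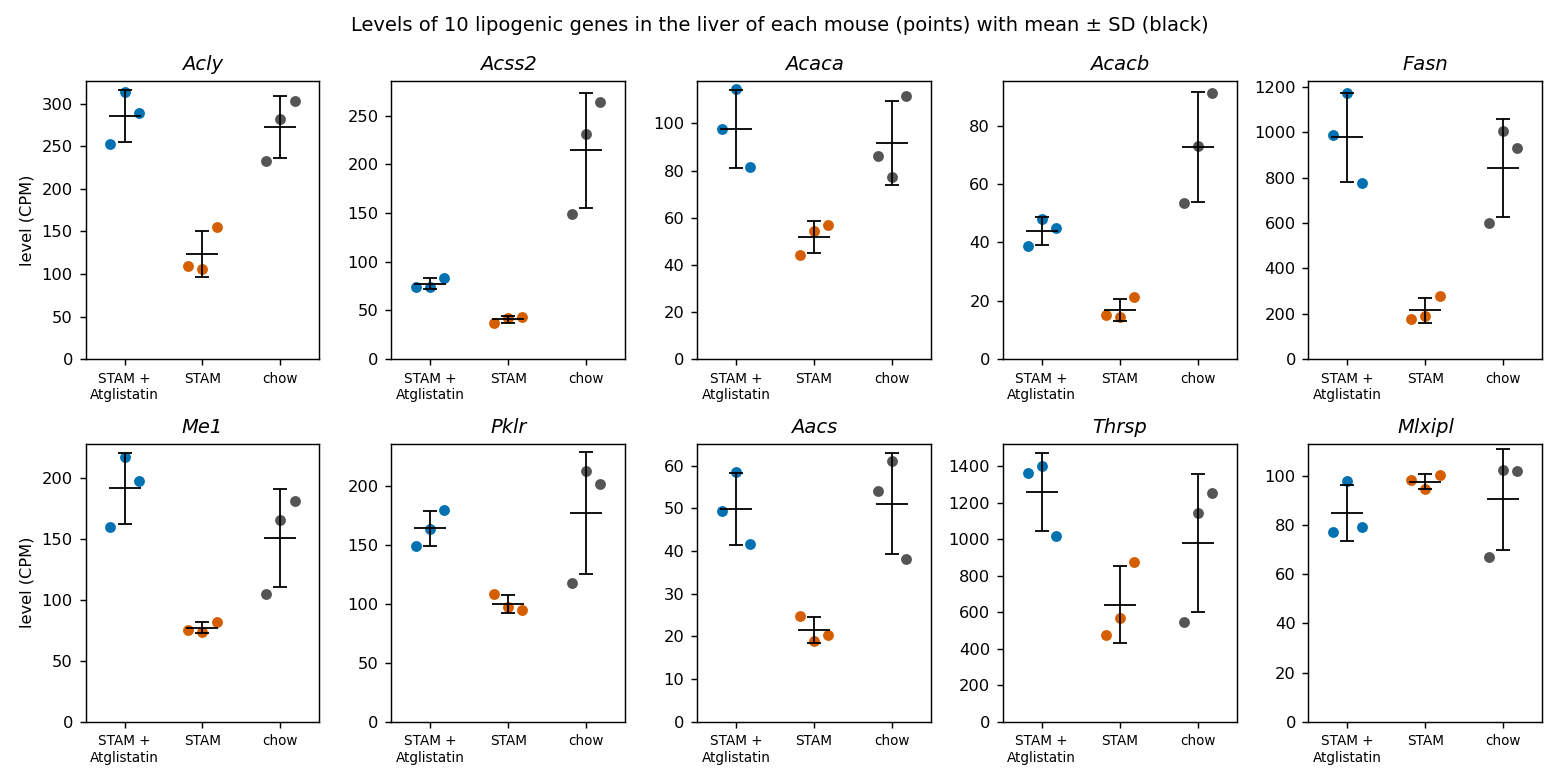
Level of each of the 10 genes in CPM (vertical axes, from 0) in each mouse (points), for STAM + Atglistatin, STAM and chow from left to right, with the mean ± SD of 3 mice in black. The 3 STAM mice lie below the 3 STAM + Atglistatin mice for 9 genes, the exception being Mlxipl, and Acss2 in STAM + Atglistatin stays below all 3 chow mice.

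Of the 10 genes, 8 rose in STAM + Atglistatin against STAM, where 1.04% of all tested genes rose. The median log2 fold change was 1.09 over the 10 genes and -0.000707 over all tested genes. In this comparison 0 fell, where 0.742% of tested genes fell; edgeR gave 0 at an unadjusted p under 0.05, and DESeq2 and limma-voom also called 0 lower. In 9 genes all 3 STAM + Atglistatin mice lay above all 3 STAM mice, as in 8.58% of tested genes. In STAM against chow 8 fell, against 1.99% of tested genes, with a median log2 fold change of -1.05. In that comparison 0 rose, where 1.95% of tested genes rose; edgeR gave 0 at an unadjusted p under 0.05, and DESeq2 and limma-voom called 0 higher. All 3 STAM mice lay below all 3 chow mice in 8 genes, as in 10.2% of tested genes. In STAM + Atglistatin against chow 2 fell, Acss2 and Acacb, where 1.97% of tested genes fell, and these were also the 2 whose values did not overlap in that direction, as in 9.03% of tested genes. Here 0 rose, where 2.10% of tested genes rose, with 0 at an unadjusted p under 0.05 in edgeR and 0 called higher by DESeq2 and limma-voom. The median log2 fold change of the 10 genes against chow was 0.01. Without STAM mouse 1, 5 of the 10 passed in STAM + Atglistatin against STAM.

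**Figure D2:**
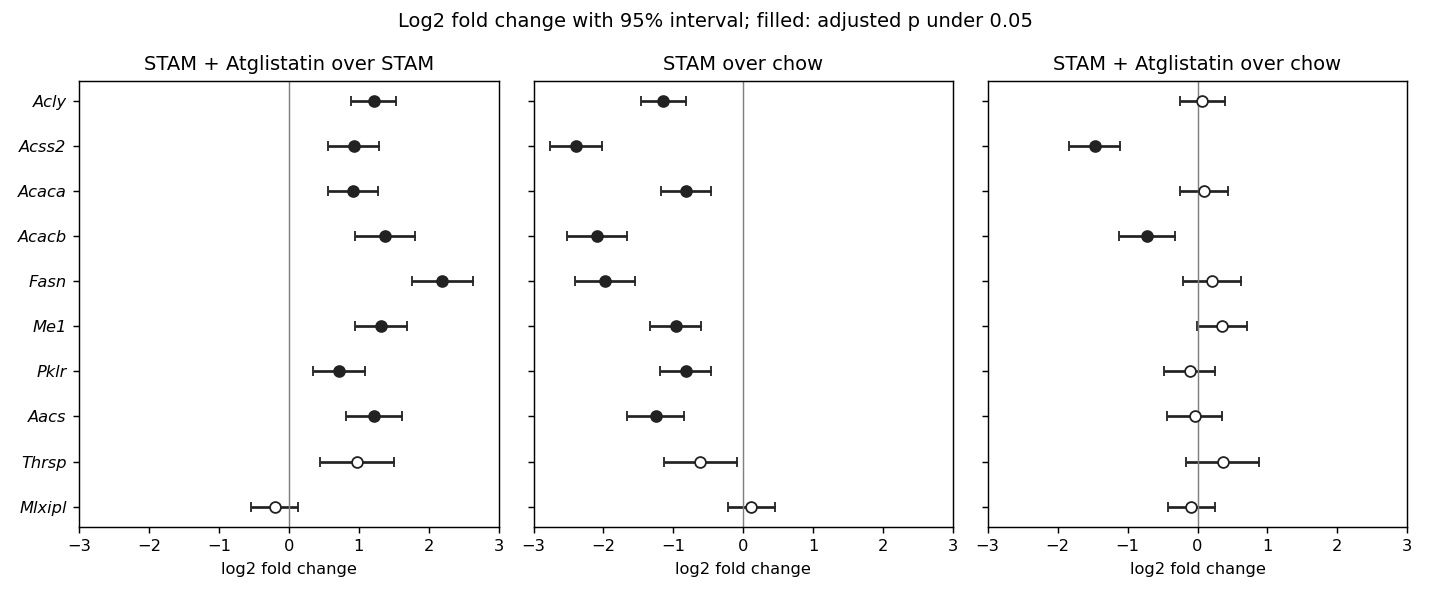
Log2 fold change of each gene (horizontal axes, 0 marked) with its 95% interval, for the 3 comparisons from left to right; filled points passed the adjusted p threshold of 0.05. With Atglistatin 8 filled points lie right of 0, STAM against chow has 8 left of 0, and STAM + Atglistatin against chow has 2, Acss2 at -1.47 and Acacb at -0.72.

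In the authors' deposited table, 8 of the 10 genes had an adjusted p under 0.05 for STAM + Atglistatin over STAM (of 282 genes in all), 8 for chow over STAM (of 627) and 2 for STAM + Atglistatin over chow (of 625). The authors' deposited table gives Fasn a log2 fold change of 1.76 for STAM + Atglistatin over STAM and of 1.58 for chow over STAM, the second of which runs from STAM to chow. From the same counts, the fit used here gave 2.19 for STAM + Atglistatin against STAM and -1.98 for STAM against chow. For Thrsp the authors' deposited table has an adjusted p of 0.190 for STAM + Atglistatin over STAM.

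Promoter sequence upstream of the start of a gene is where these factors are known to bind. RefSeq (GRCm38.p6) gave 13 start sites for the 10 genes, and the 250 bases before each were searched on both strands for the letters of 6 motifs. Those before a start of Fasn (chr11:120824548-120824797, minus strand), of Pklr (chr3:89136373-89136571, plus strand, from 250 to 52 bases before the start, as exon bases are left out) and of Mlxipl (chr5:135089640-135089889, plus strand) are printed because Fasn had the largest change with Atglistatin among the 10 genes, Pklr held the match to the carbohydrate response element, and Mlxipl encodes the factor that binds that element. Capitals mark an E-box, a CCAAT box in either orientation or a carbohydrate response element (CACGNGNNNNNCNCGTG, a motif added after the data were seen).
Fasn: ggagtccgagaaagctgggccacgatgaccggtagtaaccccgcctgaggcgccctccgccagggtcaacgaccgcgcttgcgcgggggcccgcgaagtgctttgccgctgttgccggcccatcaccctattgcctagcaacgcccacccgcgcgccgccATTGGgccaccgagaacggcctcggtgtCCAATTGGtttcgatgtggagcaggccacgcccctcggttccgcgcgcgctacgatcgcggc
Pklr: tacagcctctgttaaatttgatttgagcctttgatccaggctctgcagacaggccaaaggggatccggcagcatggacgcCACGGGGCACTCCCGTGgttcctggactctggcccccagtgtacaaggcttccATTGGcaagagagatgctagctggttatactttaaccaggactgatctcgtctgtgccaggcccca
Mlxipl: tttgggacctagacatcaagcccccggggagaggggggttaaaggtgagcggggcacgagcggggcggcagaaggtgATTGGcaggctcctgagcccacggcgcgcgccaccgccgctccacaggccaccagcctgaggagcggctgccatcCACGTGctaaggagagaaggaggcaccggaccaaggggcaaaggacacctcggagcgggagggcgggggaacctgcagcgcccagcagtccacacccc
Fasn had 3 CCAAT boxes, at 90, 62 and 59 bases before the start, of which the last 2 overlap. Distances run to the first base of a match on the gene's strand. CCAAT boxes were found in 7 of the 13 windows, each of a different gene, and in 33.9% of the 32841 mouse windows of this length. The Pklr match to the carbohydrate response element lay 170 bases before the start, and 13 windows of all, or 0.0396%, held one. The E-box (CACGTG) of Mlxipl, 98 bases before the start, was the one found in the 13 windows, against 6.02% of all windows. The core of a sterol regulatory element (TCACNCCAC) was in 1 of the 13, 136 bases before the other start of Mlxipl, and in 1.05% of all windows. GC boxes (GGGCGG) were in 4 of the 13 and in 32.75% of all, and TATAAA was in 2 of the 13 and in 12.4% of all. A match of letters is no evidence of binding, and reads from 3' ends cannot tell the 2 starts of Mlxipl or of Pklr apart. Nor does a lack of these exact letters in 250 bases show that a gene lacks a site. The only windows of Acaca and of Acacb lie inside the annotated genes, so the bases before their annotated gene starts were not searched. In the windows of Thrsp and Acss2, 180 and 95 of the 250 bases are annotated exon.

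Acetyl-CoA comes from citrate by way of ATP-citrate lyase. Acly (ENSMUSG00000020917, chr11:100476353-100528000, minus strand, GRCm38) had 253, 314 and 289 CPM in STAM + Atglistatin mice 4, 5 and 6, against 110, 106 and 155 CPM in STAM mice 1, 2 and 3 and 233, 282 and 304 CPM in chow mice 7, 8 and 9. The STAM mice were below every other mouse, and the other groups overlapped. Acly rose by a log2 fold change of 1.21 ± 0.16 (adjusted p = 0.000143) in STAM + Atglistatin against STAM, and its log2 fold change in STAM against chow was -1.14 ± 0.16 (adjusted p = 0.000166). Against chow, STAM + Atglistatin differed by 0.07, with a 95% interval of -0.25 to 0.39.

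Acetate is the other source, through the cytosolic and nuclear acetyl-CoA synthetase encoded by Acss2 (chr2:155517948-155585724, plus strand). Its levels were 74.0, 74.4 and 83.6 CPM in STAM + Atglistatin mice, against 36.7, 42.2 and 43.4 CPM in STAM mice and 149, 231 and 264 CPM in chow mice. No groups overlapped, and STAM + Atglistatin lay above STAM and below chow. Mean levels in STAM + Atglistatin and in STAM were 36.1% and 19.0% of the chow mean. The STAM mice were 5.26-fold below chow (log2 fold change -2.39 ± 0.18, adjusted p = 1.75e-07), the largest drop among the 10 genes. Acss2 rose by a log2 fold change of 0.92 ± 0.17 with Atglistatin (adjusted p = 0.00597), and STAM + Atglistatin stayed below chow at -1.47 ± 0.17 (adjusted p = 3.31e-05). Without STAM mouse 1 the rise did not pass (adjusted p = 0.0678). Acss2 overlaps Gss on the other strand over 22544 bases, and whether the authors' counting used strand is not given in the sources used here, so reads of the pair may not be separable. The same limit holds for its overlap with the antisense gene Acss2os over 9891 bases. It also holds for Acaca with Gm11437 over 19126 bases and for Pklr with Hcn3 over 711 bases, both on opposite strands.

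Malonyl-CoA is made by acetyl-CoA carboxylases from a pair of genes. Acaca (chr11:84129672-84401651, plus strand) encodes the cytosolic enzyme that feeds fatty acid synthase, and Acacb (chr5:114146535-114250761, plus strand) the form at the outer mitochondrial membrane, whose malonyl-CoA inhibits fatty acid entry into mitochondria through carnitine palmitoyltransferase. Acaca stood at 97.6, 114 and 81.4 CPM in STAM + Atglistatin mice, against 44.1, 54.6 and 57.1 CPM in STAM mice and 86.3, 77.3 and 112 CPM in chow mice. STAM was again lowest without overlap, and STAM + Atglistatin and chow overlapped. Acaca rose by a log2 fold change of 0.91 ± 0.17 in STAM + Atglistatin against STAM (adjusted p = 0.00456), and STAM was below chow at -0.82 ± 0.17 (adjusted p = 0.00663). Leaving out STAM mouse 1 ended both calls (adjusted p = 0.0573 and 0.0650). The interval for STAM + Atglistatin against chow was -0.25 to 0.44.

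Acacb was at 38.7, 47.9 and 45.1 CPM in STAM + Atglistatin mice, against 15.3, 14.3 and 21.3 CPM in STAM mice and 53.6, 73.2 and 91.2 CPM in chow mice. As with Acss2, the groups did not overlap and STAM + Atglistatin lay between the others. It rose by a log2 fold change of 1.37 ± 0.20 with Atglistatin (adjusted p = 0.000610), while the log2 fold change of STAM against chow was -2.10 ± 0.20 (adjusted p = 4.17e-06). STAM + Atglistatin against chow was -0.72 ± 0.19 (adjusted p = 0.0404). That last call was lost without any one of STAM + Atglistatin mice 4, 5 and 6 or of chow mice 8 and 9 (adjusted p from 0.0849 to 0.243), with unscaled library totals (0.0582) and in a fit to the 2 groups alone (0.0546).

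Set against Acaca in the same library, which needs no scaling between libraries, Acacb was lowest in STAM. The log2 ratio of Acacb to Acaca counts was -1.33, -1.26 and -0.85 in STAM + Atglistatin mice, against -1.53, -1.93 and -1.42 in STAM mice and -0.69, -0.08 and -0.29 in chow mice. The 3 groups did not overlap, with means of -1.15 ± 0.26, -1.63 ± 0.27 and -0.35 ± 0.31 for STAM + Atglistatin, STAM and chow. STAM + Atglistatin minus STAM was 0.48, STAM minus chow -1.27 and STAM + Atglistatin minus chow -0.79. Each gave p = 0.1 in a two-sided exact permutation test, the smallest that 3 mice against 3 allow. A ratio of this kind shows unequal change and not which gene changed.

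**Figure D3:**
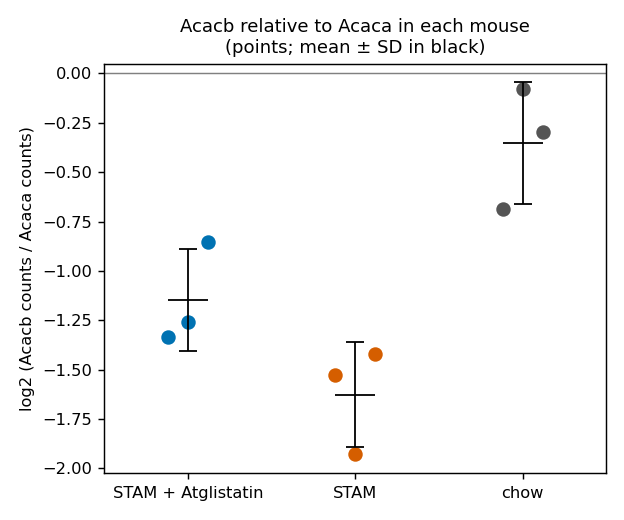
Log2 ratio of Acacb to Acaca counts (vertical axis) in each mouse (points), for STAM + Atglistatin, STAM and chow from left to right, with mean ± SD of 3 mice in black. STAM + Atglistatin mice lie from -1.33 to -0.85, STAM mice lowest, from -1.93 to -1.42, and chow mice highest, from -0.69 to -0.08.

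Fatty acid synthase, the multifunctional enzyme that assembles palmitate, is encoded by Fasn (chr11:120805846-120824547, minus strand), whose promoter is printed above and which overlaps no other annotated gene. Fasn had 987, 1172 and 778 CPM in STAM + Atglistatin mice, against 176, 188 and 279 CPM in STAM mice and 599, 1005 and 930 CPM in chow mice. The lowest STAM + Atglistatin mouse was above the highest STAM mouse, and STAM + Atglistatin and chow overlapped. Fasn was 4.57-fold higher in STAM + Atglistatin than in STAM (log2 fold change 2.19 ± 0.21, adjusted p = 4.50e-06) and 3.94-fold lower in STAM than in chow (-1.98 ± 0.20, adjusted p = 7.50e-06). Against chow, STAM + Atglistatin differed by 0.21 (adjusted p = 0.698), with an interval of -0.20 to 0.63.

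Me1 (chr9:86581371-86695953, minus strand) encodes cytosolic malic enzyme, which makes pyruvate and NADPH from malate. Its levels were 160, 217 and 197 CPM in STAM + Atglistatin mice, against 75.4, 73.3 and 82.0 CPM in STAM mice and 105, 165 and 181 CPM in chow mice. STAM mice were tightly grouped and below all others. Me1 rose by a log2 fold change of 1.31 ± 0.18 with Atglistatin (adjusted p = 0.000219), and the log2 fold change of STAM against chow was -0.97 ± 0.17 (adjusted p = 0.00256). The mean in STAM + Atglistatin was 127% of the chow mean, a difference that did not pass (0.35 ± 0.17, adjusted p = 0.356, interval -0.01 to 0.71).

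Pklr (chr3:89136142-89146784, plus strand) encodes the liver form of pyruvate kinase, the last step of glycolysis before pyruvate. It had 149, 164 and 179 CPM in STAM + Atglistatin mice, against 108, 96.9 and 94.3 CPM in STAM mice and 118, 212 and 201 CPM in chow mice. STAM was below both other groups, although chow mouse 7 came close to the STAM mice. Among the 8 genes that passed, Pklr had the smallest log2 fold change with Atglistatin, 0.71 ± 0.17 (adjusted p = 0.0442), and the log2 fold change of STAM against chow was -0.83 ± 0.18 (adjusted p = 0.00932). The Atglistatin call was lost on leaving out any one of the 6 mice (adjusted p from 0.0915 to 0.204), and that against chow without chow mouse 8 or 9 or STAM mouse 2 or 3 (0.0517 to 0.0660). The interval for STAM + Atglistatin against chow was -0.48 to 0.25.

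Aacs (chr5:125475814-125517410, plus strand) encodes acetoacetyl-CoA synthetase, which brings the ketone body acetoacetate back into lipid synthesis in the cytosol. Aacs was at 49.4, 58.5 and 41.6 CPM in STAM + Atglistatin mice, against 24.9, 19.0 and 20.4 CPM in STAM mice and 54.1, 61.1 and 38.1 CPM in chow mice. All STAM mice were below all others, and the other 2 groups overlapped over nearly their whole range. Aacs rose by a log2 fold change of 1.22 ± 0.19 with Atglistatin (adjusted p = 0.00125), and STAM was below chow at -1.25 ± 0.19 (adjusted p = 0.000596). The interval for STAM + Atglistatin against chow was -0.43 to 0.35.

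Thrsp (chr7:97412938-97417730, minus strand) encodes Spot 14, a small nuclear and cytosolic protein that thyroid hormone and carbohydrate induce and that is tied to lipogenesis. Its levels were 1361, 1402 and 1016 CPM in STAM + Atglistatin mice, against 476, 568 and 878 CPM in STAM mice and 546, 1144 and 1252 CPM in chow mice. STAM + Atglistatin and STAM did not overlap, while STAM and chow did, with chow mouse 7 below STAM mice 2 and 3. With Atglistatin the difference was 0.98 ± 0.25 (adjusted p = 0.0580), which missed the threshold. It passed with unscaled library totals (0.0256), without a low-count filter (1.44e-11), in limma-voom (0.00290), in a fit to the 2 groups alone (0.00158) and without STAM mouse 3 (0.0154). In the other 7 alternatives, DESeq2 among them, it did not pass (adjusted p up to 0.345). Without a low-count filter the log2 fold change was 0.97, so the adjusted p changed and the size of the difference hardly did. The log2 fold change of STAM against chow was -0.61 ± 0.25 (adjusted p = 0.235), and -0.90 without chow mouse 7 (adjusted p = 0.00295). It also passed without a low-count filter (0.000145, at a log2 fold change still of -0.61) and in limma-voom (0.0179). It did not pass in the other 9 alternatives (up to 0.593). STAM + Atglistatin against chow had an interval of -0.16 to 0.88.

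Mlxipl (chr5:135089890-135138382, plus strand), the gene of ChREBP, did not follow the enzymes. It had 77.3, 97.9 and 79.2 CPM in STAM + Atglistatin mice, against 98.2, 94.6 and 100 CPM in STAM mice and 66.9, 103 and 102 CPM in chow mice. All 3 groups overlapped. The log2 fold change was -0.20 for STAM + Atglistatin against STAM (adjusted p = 0.770, interval -0.54 to 0.13) and 0.11 for STAM against chow (adjusted p = 0.833, interval -0.22 to 0.45; -0.07 without chow mouse 7). The transcript says nothing of the activity of the protein.

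Within groups the genes also tended to share the order of the mice. STAM mouse 3 had the highest STAM level of 8 genes and the lowest of Pklr. Chow mouse 7 had the lowest chow level of 8 genes, all but Acaca and Aacs. STAM + Atglistatin mouse 5 was highest of its group for 8 genes, and mice 4 and 6 were lowest for 6 and 4. STAM mice 1 and 2 were lowest of their group for 4 and 5 genes, and chow mice 8 and 9 highest of theirs for 4 and 6. Over the 9 libraries, Pearson's r of a gene with the mean standardised log2 CPM of the other 9 was 0.96 for Fasn, 0.95 for Acly, 0.93 for Me1, 0.92 for Acacb, 0.91 for Pklr, 0.86 for Acaca, 0.80 for Thrsp, 0.79 for Aacs, 0.76 for Acss2 and -0.11 for Mlxipl. These are descriptions of mice that share their groups and libraries.

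Upstream of the enzymes, 21 transcriptional regulators were tested. With Atglistatin 1 rose, Insig1, which encodes the endoplasmic reticulum protein that holds SREBPs back when sterol is high and is itself a known SREBP target. Insig1 had 147, 110 and 130 CPM in STAM + Atglistatin mice, against 41.8, 49.1 and 49.2 CPM in STAM mice and 140, 174 and 116 CPM in chow mice. It rose by a log2 fold change of 1.46 ± 0.16 (adjusted p = 2.45e-05) and was lower in STAM than in chow at -1.62 ± 0.16 (adjusted p = 5.17e-06). Scap, which encodes the escort protein of the SREBPs, was lower than chow in STAM (-0.78 ± 0.13, adjusted p = 0.00156) and in STAM + Atglistatin (-0.72 ± 0.13, adjusted p = 0.00297). Insig2, a relative of Insig1, was the other regulator lower than chow in STAM + Atglistatin (-0.71 ± 0.17, adjusted p = 0.0237), and did not pass without STAM + Atglistatin mouse 4 or 5 or chow mouse 9 (0.0562 to 0.127), with unscaled library totals (0.0630) or in a fit to the 2 groups alone (0.0680). Srebf1, the gene of the SREBP most tied to fatty acid synthesis, averaged 142 ± 36.1 CPM in STAM + Atglistatin, 110 ± 25.3 in STAM and 144 ± 34.4 in chow and passed in no comparison (log2 fold change 0.38 with Atglistatin, adjusted p = 0.564). Srebf2, the gene of the SREBP most tied to sterol synthesis, had a log2 fold change of -0.86 ± 0.24 in STAM against chow (adjusted p = 0.0561, and from 0.00958 to 0.222 over the alternatives) and 0.73 ± 0.24 with Atglistatin (adjusted p = 0.204). Nr1h3, the gene of the liver X receptor alpha, had log2 fold changes of 0.04 and 0.00 in these comparisons, and Mlx, whose product pairs with ChREBP, -0.04 and -0.51; neither passed. The median over the 21 was -0.04 for STAM + Atglistatin against STAM and -0.02 for STAM against chow.

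Among 21 genes of carbon and NADPH supply, 2 rose with Atglistatin, Tkt and Pgd, both of the pentose phosphate pathway, with log2 fold changes of 0.64 ± 0.13 (adjusted p = 0.0129) and 0.68 ± 0.16 (adjusted p = 0.0299). Tkt did not pass without STAM + Atglistatin mouse 4 or any one STAM mouse (0.0585 to 0.0866), nor Pgd without STAM + Atglistatin mouse 5 or 6 or any one STAM mouse (0.0643 to 0.221) or with unscaled library totals (0.0513). G6pdx, the first enzyme of that pathway, had 0.76 ± 0.45 (adjusted p = 0.631). In STAM against chow 2 of the 21 rose and 3 fell, among them Slc25a1, the mitochondrial citrate carrier, at -0.71 ± 0.14 (adjusted p = 0.00653); with Atglistatin Slc25a1 had 0.43 ± 0.14 (adjusted p = 0.204; 0.0451 without STAM + Atglistatin mouse 6). When a library was left out, between 0 and 2 of the 21 rose and between 1 and 3 fell in STAM against chow. Against chow 4 of the 21 were higher in STAM + Atglistatin, and between 0 and 2 when a library was left out. The list median was 0.15 with Atglistatin and -0.03 in STAM against chow.

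Of 16 genes of glycolysis and fructose entry, 2 rose with Atglistatin (0 to 3 when a library was left out). Among them Gpi1, glucose-6-phosphate isomerase, had a log2 fold change of 0.70 ± 0.15 (adjusted p = 0.0130; 0.0585 to 0.119 without STAM + Atglistatin mouse 4 or 5 or STAM mouse 1 or 2). Against chow 4 of the 16 were higher in STAM + Atglistatin (2 to 4 when a library was left out). Among them Tkfc, the fructose enzyme triokinase, had a log2 fold change of 0.73 ± 0.14 (adjusted p = 0.00554). The list median was 0.21 with Atglistatin and 0.02 in STAM against chow.

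Of 14 modifiers of the carboxylases and of malonyl-CoA use, 2 rose with Atglistatin. Mid1ip1 encodes a partner that promotes the polymerisation of acetyl-CoA carboxylase and is the paralog of Thrsp. Mid1ip1 had 98.9, 98.6 and 91.1 CPM in STAM + Atglistatin mice, against 38.3, 44.4 and 50.0 CPM in STAM mice and 85.3, 134 and 79.6 CPM in chow mice. It rose by a log2 fold change of 1.12 ± 0.18 with Atglistatin (adjusted p = 0.00122), and the log2 fold change of STAM against chow was -1.17 ± 0.18 (adjusted p = 0.000509). Cpt1a, which encodes the carnitine palmitoyltransferase that malonyl-CoA inhibits, went the other way in STAM, at 0.82 ± 0.12 against chow (adjusted p = 0.000260), and was also above chow in STAM + Atglistatin (0.60 ± 0.12, adjusted p = 0.00450). The other gene that rose with Atglistatin was Btd, which encodes biotinidase, the enzyme that recycles the biotin of the carboxylases, at 0.63 ± 0.15 (adjusted p = 0.0414; 0.0709 to 0.221 without any one of the STAM + Atglistatin mice or STAM mouse 1 or 2). With Atglistatin Cpt1a had -0.22 ± 0.12 (adjusted p = 0.562). The list median was 0.10 with Atglistatin and -0.04 in STAM against chow.

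Downstream, 15 desaturases and elongases had 4 genes that rose and 1 that fell with Atglistatin, the elongase Elovl3 (-1.66 ± 0.26, adjusted p = 0.00105), and 6 that fell in STAM against chow. Scd1, stearoyl-CoA desaturase, rose by a log2 fold change of 1.78 ± 0.20 with Atglistatin (adjusted p = 3.43e-05) and was lower in STAM than in chow at -3.25 ± 0.21 (adjusted p = 4.47e-08). Elovl6, which extends palmitate to stearate, averaged 444 ± 58.0 CPM in STAM + Atglistatin, 178 ± 5.31 in STAM and 215 ± 67.8 in chow. It rose by a log2 fold change of 1.32 ± 0.18 against STAM (adjusted p = 0.000336) and was above chow too (1.05 ± 0.18, adjusted p = 0.00199). In the same comparison with chow 2 of the 15 were lower in STAM + Atglistatin, Scd1 (-1.47 ± 0.20, adjusted p = 0.000177) and Elovl3 (-3.25 ± 0.27, adjusted p = 6.07e-07). The list median was 0.47 with Atglistatin and -0.34 in STAM against chow. Of 12 tested paralogs and mitochondrial counterparts of the enzymes, 1 rose with Atglistatin, Mid1ip1, and in STAM against chow Mid1ip1 fell and Bdh1 and Acss3 rose (0 to 2 genes rose when a library was left out). Among 15 insulin signalling genes 0 passed in STAM + Atglistatin against STAM in edgeR (3 at an unadjusted p under 0.05; 0 in DESeq2 and 0 in limma-voom; 1 lower without a low-count filter and 1 lower in a fit to the 2 groups alone). In STAM against chow 0 passed (2 unadjusted; 0 in DESeq2, 1 lower in limma-voom and 1 higher without chow mouse 9).

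**Figure D4:**
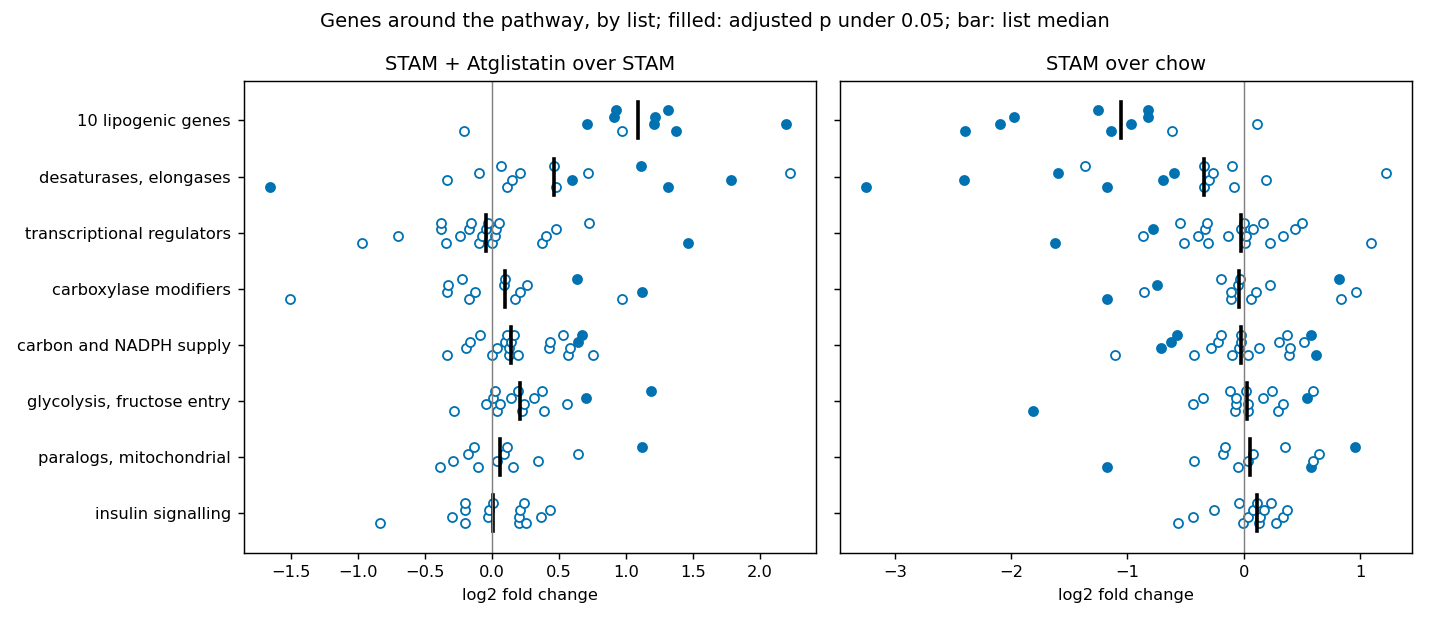
Log2 fold change of the tested genes of each list (rows, horizontal axes) for STAM + Atglistatin over STAM (left) and STAM over chow (right); filled points passed the adjusted p threshold of 0.05 and the bar is the list median. The 10 lipogenic genes have medians of 1.09 and -1.05, while the list medians of the regulators are -0.04 and -0.02.

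Markers of other cells were read beside these results, and their part in them was not tested. Lep, an adipocyte hormone gene, had 0 counts in all 9 libraries, and Adipoq, another, had 19, 0 and 6 counts in STAM + Atglistatin mice, 1, 0 and 2 in STAM mice and 24, 0 and 3 in chow mice. The mouse with the highest Fasn of its group had 0 Adipoq counts in STAM + Atglistatin (mouse 5) and in chow (mouse 8), and the most Adipoq counts of its group in STAM (mouse 3, with 2). Single mice with counts this near 0 cannot show a relation, and none was tested. Of 10 adipocyte markers 5 could be tested, 1 fell with Atglistatin and 1 rose in STAM against chow, and their summed level, mostly Pck1, which hepatocytes also express, was 1612 to 2068 CPM in STAM + Atglistatin, 2796 to 3206 in STAM and 1387 to 3200 in chow. For the 5 tested, the median log2 fold change was -0.76 with Atglistatin and 0.89 in STAM against chow. At an unadjusted edgeR p under 0.05, 3 were lower with Atglistatin and 4 higher in STAM against chow, with 0 the other way. Means of Lipe, Fabp4 and Cidec were 32.8, 23.2 and 30.7 CPM in STAM. They were 16.0, 13.4 and 22.8 CPM in STAM + Atglistatin, and 20.7, 12.4 and 6.84 CPM in chow. Plin1 had 0 counts in STAM and 17 of its counts in chow mouse 7. The 9 hepatocyte markers summed to 82489 to 86961 CPM in STAM + Atglistatin, 60994 to 70748 in STAM and 105197 to 117855 in chow. Of these, 1 rose with Atglistatin (Alb, by 0.63 ± 0.10, adjusted p = 0.00159), 4 fell in STAM against chow and 4 fell in STAM + Atglistatin against chow. The sum was lowest in STAM, with a mean of 66222 CPM against 84428 in STAM + Atglistatin and 112834 in chow. Alb was its largest part, at 45727 CPM in STAM + Atglistatin, 29475 in STAM and 60367 in chow. The median log2 fold change of the 9 was -0.04 with Atglistatin and -0.68 in STAM against chow, and Serpina1a, Tat, Hpd, Fgb and Ahsg had lower means in STAM + Atglistatin than in STAM, differences that did not pass. Macrophage markers summed to 343 to 474 CPM in STAM + Atglistatin, 383 to 434 in STAM and 302 to 403 in chow. Endothelial markers summed to 323 to 391 CPM in STAM + Atglistatin, 288 to 311 in STAM and 305 to 332 in chow, without overlap between STAM + Atglistatin and STAM. Of 8 endothelial markers 0 passed with Atglistatin, where 3 were higher and 0 lower at an unadjusted edgeR p under 0.05. In STAM against chow 1 of the 8 rose past the threshold, and 1 was lower at an unadjusted p under 0.05. Sums of stellate, bile duct and lymphocyte markers overlapped between STAM + Atglistatin and STAM.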

How the data were processed

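RNA from 9 livers was sequenced as QuantSeq 3' libraries. Reads were aligned with STAR to GRCm38, per the submitters' processing notes; how they were counted, on which annotation and strand, is unknown here. Raw counts per gene come from the authors' table, as do the authors' log2 fold changes and adjusted p-values. In all 55408 rows the authors' group sums equalled the library sums. Left out were 7 ribosomal RNA entries (0.260 to 0.529% of counts). Groups follow the sample titles, as the treatment label of the STAM and chow samples goes against titles and design.

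edgeR 4.0.16 (R 4.3.3) with TMM, filterByExpr and quasi-likelihood tests fitted the 9 libraries together, two-sided, with Benjamini-Hochberg adjustment over 12660 genes; the common biological coefficient of variation was 0.236. The members, the gene lists and the rule for named genes (all 10 members, up to 3 called genes per list and direction by smallest p, and the main regulators and supply genes) were chosen with earlier results of these data known. Nnt, a symbol of 2 rows, was left out of its list. A few genes that the rule names are not reported here. Ratios used a pseudocount of 0.5. Alternatives were unscaled library totals, DESeq2 size factors, DESeq2 1.42.0 itself, limma-voom (3.58.1) with sample weights, all genes with a count, fits to only the compared groups, and leaving out each library. Gene positions are from GENCODE M21, promoters from RefSeq GRCm38.p6. Precision is limited by 3 mice a group.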

Additional observations from a re-analysis of the deposited data

How the results depend on the processing

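Of 30 pairs of a lipogenic gene and a comparison, 16 kept their direction and their side of the threshold under all 12 alternatives and 14 did not. Of the 14, the call itself changed for Acaca, Acss2, Thrsp and Pklr in STAM + Atglistatin against STAM, for Acaca, Thrsp and Pklr in STAM against chow, and for Acacb in STAM + Atglistatin against chow; the others were differences near 0 against chow that turned sign. Leaving out 1 library gave 5 to 8 lipogenic genes called for STAM + Atglistatin against STAM, 7 to 9 for STAM against chow and 1 to 2 for STAM + Atglistatin against chow. In the same order, all genes called ranged over 131 to 191, 291 to 724 and 309 to 757, and list genes called over 6 to 11, 12 to 21 and 9 to 15. For STAM + Atglistatin against chow, 1 lipogenic gene was called with unscaled library totals and with only the 2 groups fitted, and 9 list genes (15 in the fit to all groups) with only the 2 groups fitted. Without a low-count filter 392 genes were called for STAM + Atglistatin against STAM. Against chow, STAM + Atglistatin reversed to 0.0056 for Mlxipl, 0.039 for Aacs, 0.073 for Srebf1 and 0.039 for Mid1ip1 with unscaled library totals, and to 0.040 for Aacs in limma-voom. The cause of these changes was not tested.

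Leaving out 1 library turned the sign of some differences that had not passed. For STAM + Atglistatin against chow these ranged from -0.039 to 0.15 for Acly, -0.035 to 0.26 for Acaca, -0.27 to 0.010 for Mlxipl, -0.34 to 0.042 for Pklr, -0.21 to 0.11 for Aacs, -0.25 to 0.18 for Srebf1, -0.46 to 0.0043 for Srebf2, -0.29 to 0.0064 for Insig1, -0.19 to 0.22 for Mid1ip1 and -0.59 to 0.085 for G6pdx. For STAM against chow they ranged from -0.066 to 0.22 for Mlxipl and -0.098 to 0.10 for Nr1h3, and for STAM + Atglistatin against STAM from -0.063 to 0.14 for Nr1h3 and -0.18 to 0.048 for Mlx. No paired analysis was possible because the labels number the 9 mice 1 to 9, with no number shared between groups.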

Other observations

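Among 7715 other genes with a mean log2 CPM of at least 3, those whose levels over the 9 libraries were most like the mean of the 10 lipogenic genes included Gpam, Hamp2, Cyp2c67, Plpp1, Tecr, Polr3g and Serbp1, with Pearson's r from 0.97 for Gpam to 0.94 for Serbp1. Gpam, the mitochondrial glycerol-3-phosphate acyltransferase that uses newly made fatty acids, averaged 308 CPM in STAM + Atglistatin, 182 in STAM and 314 in chow. Hamp2, a hepcidin gene, and Cyp2c67, a cytochrome P450 gene, have close paralogs that may share their reads. These genes were picked for their likeness, so their values are a description.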
